A study of Arabidopsis thaliana with 6 samples.

Results

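Transcript levels of 34 genes of cell wall polysaccharide synthesis and O-acetylation were examined in vegetative shoot apices of Arabidopsis thaliana on 6 Affymetrix arrays. The genes were those whose symbol in the array annotation begins with 1 of 16 family stems followed by a digit, and they are 34 of 13356 genes with a named probe set (0.255%). The rule uses symbols and no measured value, but the group was picked with earlier results of these data known. They comprised 22 TBL genes, 4 CSLC, 2 CSLA, 2 GUT and 2 IRX genes, CSLD2 and GAUT15, each with 1 probe set. The other 9 stems of the rule, cellulose synthases (CESA), xyloglucan xylosyltransferases (XXT) and the wall acetylation genes RWA among them, had 0 members with a named probe set. The group is therefore mostly the TBL family. The arrays compared plants overexpressing miR164b (2 arrays), plants overexpressing miR172a (2 arrays) and plants that carry the empty plasmid pML_Bart (vector, 2 arrays). All were of the Columbia background, grown in short days and sampled at an age of 7 days. The labels give neither the promoter behind the overexpression nor the number of lines or pooled plants, nor whether a group's pair of arrays stands for separate plants, so p-values measure only the spread between these arrays, which may be technical.

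Plant cell walls embed cellulose in hemicelluloses (xyloglucan, xylan and mannans) and pectins, which are built in the Golgi by glycosyltransferases and carry acetyl groups. TBL (TRICHOME BIREFRINGENCE-LIKE) proteins form a plant family named after a gene needed for trichome wall structure, and several of them transfer acetyl groups to one particular polysaccharide. CSLA and CSLC proteins, relatives of cellulose synthase, make the backbones of glucomannan and xyloglucan. Growing tissue such as an apex has mainly primary walls, in which xyloglucan and pectin are prominent, while xylan is abundant in the secondary walls of xylem. MiR164 lowers the activity of NAC boundary genes and miR172 that of AP2-type floral repressors.

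In apices labelled miR172a, TBL28, TBL36 and TBL43 were higher than in vector apices, by log2 differences between 0.66 and 0.83, and 0 of the 34 genes passed the test as lower, where 3.23% of all tested probe sets were called higher and 2.64% lower. In apices labelled miR164b, TBL34 and CSLC04 were higher than in vector and TBL37 was lower, by log2 differences of 0.73, 0.67 and -0.61, where 0.95% of all tested probe sets were called higher and 0.84% lower. Both comparisons use the same vector arrays. Between the lines, CSLC04 was higher and TBL37 lower in miR164b, beside 3.11% and 4.02% of all tested probe sets. In all, 6 genes passed in at least 1 comparison, with 8 calls, and 28 passed in none. That is 17.6% of the 34 genes, beside 9.94% of all probe sets with a call in at least 1 comparison. A call means a Benjamini-Hochberg adjusted p below 0.05 in limma, adjusted over all 22746 tested probe sets. Levels are scaled intensities on a linear scale, and differences, each with a standard error, are of log2(intensity + 16).

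**Figure D1:**
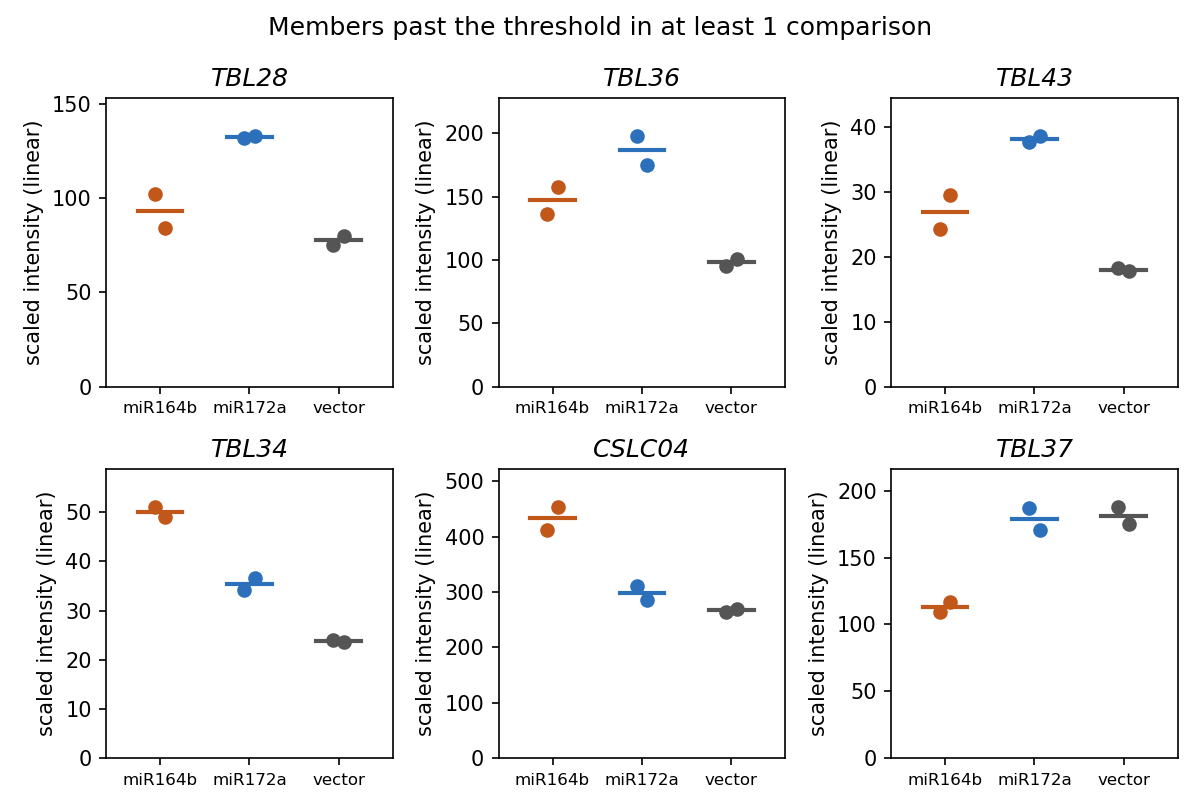
Scaled intensity (linear axis from 0) of the 6 genes called in at least 1 comparison, by group. Points are single arrays and bars are group means; for TBL28, TBL36 and TBL43 the miR172a arrays lie highest and the vector arrays lowest, for TBL34 and CSLC04 the miR164b arrays lie highest, and for TBL37 they lie lowest.

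These calls rest on a small number of arrays, and several facts of the whole series bear on them. Median intensities lay between 85.3 and 92.2 on the 6 arrays. The control for 25S rRNA was at 443 and 529 on the miR164b arrays, 355 and 3462 on the miR172a arrays, and 4070 and 4093 on the vector arrays, and its part in the results was not tested. Arrays with the miR172a label had more of SNZ, an AP2-type miR172 target, with 223 ± 18.8 against 117 ± 13.1 in vector (SD, n = 2; limma adjusted p = 0.017). SMZ, another such target, averaged 174 ± 4.81 in miR172a against 160.4 ± 3.54 in vector and did not pass (limma adjusted p = 0.506). A lowered mRNA was not seen for these 2 targets, the labels are not checked by these data, and every direction given here rests on them. Of 12 meristem and boundary markers, 2 had a named probe set. CLV3, a stem cell signal of the shoot meristem, read 64.6 and 82.4 in miR164b, 50.9 and 44.9 in miR172a, and 59.7 and 42.5 in vector. It passed in no comparison (limma adjusted p of 0.152 or more). LAS, a regulator of axillary meristems, averaged 41.0 ± 4.74 in miR164b, 64.8 ± 1.34 in miR172a and 60.5 ± 0.354 in vector. Its difference between the lines passed (limma adjusted p = 0.0339). Those of miR164b and miR172a from vector did not (limma adjusted p = 0.0976 and 0.689). Of the xylem list, 0 of 9 markers had a named probe set, as had 0 of 5 epidermis markers, so the tissue makeup of the samples was not tested. In such bulk samples fewer cells of a type and less RNA per cell cannot be told apart.

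Xylan acetylation was represented by 5 TBL genes, whose proteins add acetyl groups to xylan in Arabidopsis. TBL28 (AT2G40150) read 132 and 133 on the miR172a arrays and 102 and 84.3 on the miR164b arrays, against 75.3 and 80.0 on the vector arrays. The 3 groups do not overlap, with miR164b between the others. TBL28 rose in miR172a by a log2 of 0.66 ± 0.11 (limma adjusted p = 0.0287). In miR164b its log2 difference from vector was 0.22 ± 0.11 and did not pass (limma adjusted p = 0.34). The difference between the lines, -0.45 ± 0.11 for miR164b minus miR172a, did not pass either (limma adjusted p = 0.067), so the response of TBL28 was not shown to differ between them.

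TBL34 (AT2G38320) read 51.1 and 49.1 in miR164b, 34.1 and 36.7 in miR172a, and 24.0 and 23.5 in vector. Its order is the reverse of that of TBL28 for the 2 lines, with miR164b highest, and again no arrays of different groups overlap. It rose in miR164b by a log2 of 0.73 ± 0.08 (limma adjusted p = 0.0198). In miR172a the log2 difference was 0.37 ± 0.08 (limma adjusted p = 0.0598), and between the lines it was 0.36 ± 0.08 (limma adjusted p = 0.0566). Its intensities are low enough for the added 16 to matter: the log2 difference of miR164b from vector was 1.05 with an offset of 1 and 0.38 with one of 64, and the call held with both.

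The other xylan acetylation genes gave 0 calls. TBL30 (AT2G40160), the neighbour of TBL28 in the gene table, read 20.5 and 18.7 in miR164b, 19.2 and 19.0 in miR172a, and 20.1 and 13.6 in vector. Its log2 difference of miR172a from vector was 0.10 ± 0.12, beside the 0.66 of its neighbour. TBL35 averaged 103 ± 15.7 in miR164b, 110.3 ± 7.92 in miR172a and 109 ± 11.2 in vector. TBL32 read 51.9 and 67.1 in miR164b, 60.4 and 87.7 in miR172a, and 51.0 and 67.7 in vector. In every group the arrays of TBL32 lay far apart, and its probe set carries the suffix that Affymetrix gives to sets able to bind transcripts of several genes.

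Mannan acetylation was represented by TBL23, TBL25 and TBL26, which acetylate glucomannan, and 0 of the 3 passed in any comparison. TBL26 read 76.7 and 70.5 in miR172a and 47.8 and 60.3 in miR164b, against 57.1 and 50.6 in vector. Its miR172a arrays lie above all others, with a log2 difference from vector of 0.36 ± 0.12 (limma adjusted p = 0.158, unadjusted p = 0.0245). TBL25 averaged 421 ± 21.1 in miR164b, 381 ± 14.1 in miR172a and 359.8 ± 17.6 in vector, and TBL23 averaged 119.5 ± 2.69, 138 ± 8.13 and 139 ± 3.75 in the same groups.

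The 14 further TBL genes have no substrate stated here. TBL36 (AT3G54260) read 198 and 175 on the miR172a arrays and 136 and 158 on the miR164b arrays, against 95.3 and 101 on the vector arrays. The miR172a arrays were highest, the vector arrays lowest, and no groups overlapped. TBL36 rose in miR172a by a log2 of 0.83 ± 0.11 (limma adjusted p = 0.018). Its log2 difference in miR164b was 0.51 ± 0.11 (limma adjusted p = 0.0953), and the lines differed by -0.31 ± 0.11 for miR164b minus miR172a (limma adjusted p = 0.158).

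TBL43 (AT2G30900) read 37.7 and 38.7 on the miR172a arrays and 24.3 and 29.6 on the miR164b arrays, against 18.3 and 17.8 on the vector arrays. It showed the same order as TBL28 and TBL36. The rise in miR172a was a log2 of 0.67 ± 0.09 (limma adjusted p = 0.0198). In miR164b the log2 difference from vector was 0.33 ± 0.09 (limma adjusted p = 0.157). The miR172a rise of TBL43 was 1.04 with an offset of 1 and 0.32 with one of 64, where it also passed. These 3 genes were the only members of the 34 whose groups followed the order miR172a, miR164b, vector from high to low without overlap, which 3.38% of all tested probe sets did. That order was noticed after the values were seen.

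TBL37 (AT2G34070) was the 1 gene of the 34 called lower than vector. It read 109 and 117 on the miR164b arrays, 187 and 171 on the miR172a arrays, and 188 and 175 on the vector arrays. The miR164b arrays stand below all others, and the miR172a and vector arrays overlap. TBL37 fell in miR164b against vector by 0.61 ± 0.09 on the log2 scale (limma adjusted p = 0.0454) and was lower in miR164b than in miR172a by a log2 of -0.60 ± 0.09 (limma adjusted p = 0.0226). Its log2 difference of miR172a from vector was -0.02 ± 0.09. The difference between the lines was thus itself called, unlike those of TBL28, TBL36 and TBL43.

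TBL45 came closest to the threshold without passing it against vector. It read 756 and 697 in miR172a, 709 and 582 in miR164b, and 466 and 492 in vector, so that both lines lie above vector and overlap each other. Its log2 difference was 0.59 ± 0.12 in miR172a (limma adjusted p = 0.0512) and 0.41 ± 0.12 in miR164b (limma adjusted p = 0.164). TBL15 was likewise above vector on every array of both lines, at 30.4 and 27.9 in miR164b and 28.4 and 31.7 in miR172a against 21.5 and 19.6 in vector, with adjusted p = 0.164 and 0.097 in limma. TBL20 read 18.4 and 20.6 in miR172a against 7.20 and 9.40 in miR164b and 13.7 and 8.30 in vector, and its difference between the lines did not pass (limma adjusted p = 0.0599).

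The remaining TBL genes had adjusted p-values of 0.189 or more in each comparison. TBL39 averaged 348 ± 0.849 in miR164b, 330 ± 5.73 in miR172a and 366 ± 4.24 in vector, and its miR172a arrays lay below its miR164b arrays, which lay below its vector arrays. TBL18 read 143 and 153 in miR172a and 119 and 129.7 in miR164b, against 131 and 129.5 in vector, with a log2 difference of 0.17 ± 0.09 of miR172a from vector. TBL41 differed from vector by a log2 of -0.39 ± 0.17 in miR172a (limma adjusted p = 0.271), with 12.2 and 15.1 in miR172a against 29.0 and 17.4 in vector. TBL16 and TBL38 differed from vector by log2 values between -0.01 and 0.07 in the 2 lines, with adjusted p of 0.83 or more in limma for miR164b. TBL42 varied widely within each group, at 12.6 and 5.4 in miR164b, 2.10 and 12.9 in miR172a, and 21.9 and 1.20 in vector. TBL19 and TBL21, neighbours in the gene table, lay below 16 on all 6 arrays, as did IRX15, so these 3 genes carry little information on any change. A further 5 genes lay below 16 on some arrays and 26 on none.

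**Figure D2:**
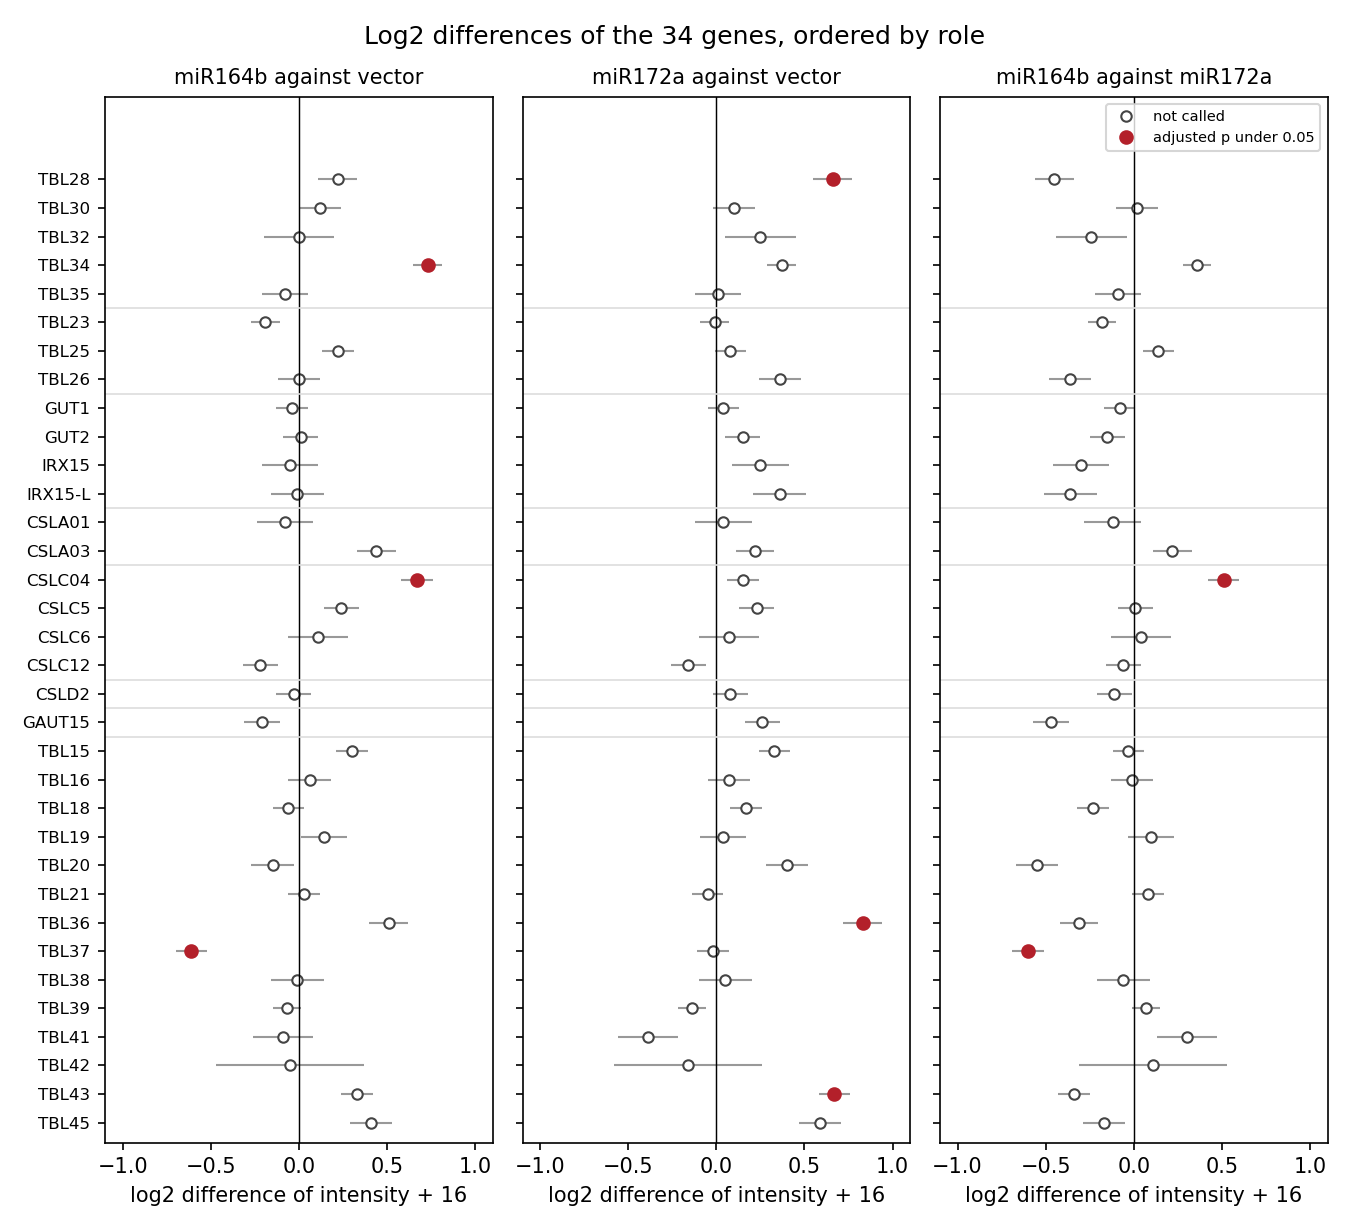
Log2 differences of intensity + 16 (horizontal axis) of the 34 genes in the 3 comparisons, with standard errors as bars; grey lines part the roles in the order xylan acetylation, mannan acetylation, xylan synthesis, glucomannan, xyloglucan, CSLD2, GAUT15 and further TBL genes. Filled points passed an adjusted p of 0.05; they number 3 for miR164b against vector, 3 for miR172a against vector and 2 between the lines, and all 4 genes of xylan synthesis lie at or near 0 in miR164b against vector.

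Genes of xylan synthesis gave 0 calls. GUT2 (IRX10) and GUT1, its close relative, encode transferases of the xylan backbone, and IRX15 and IRX15-L encode related proteins needed for normal xylan. GUT1 averaged 255 ± 1.84 in miR164b, 269.6 ± 17.1 in miR172a and 262 ± 12.2 in vector. GUT2 read 99.4 and 99.5 in miR172a and 94.5 and 82.5 in miR164b, against 92.5 and 83.3 in vector. For both GUT genes the differences from vector were small, with log2 values between -0.04 and 0.15. IRX15-L read 42.1 and 40.5 in miR172a and 22.9 and 35.2 in miR164b, against 26.6 and 31.1 in vector. Its miR172a arrays lay above all others, with a log2 difference from vector of 0.36 ± 0.15 that did not pass (limma adjusted p = 0.244). IRX15 read 2.9 and 9.7 in miR172a and 2 and 1.9 in miR164b, against 3.3 and 1.8 in vector. All 4 genes had positive log2 differences in miR172a against vector, with a median of 0.20, and 1 of 4 had one in miR164b, with a median of -0.02. For IRX15, below 16 on all arrays, the miR172a difference was 0.25, and 0.03 without miR172a replicate 2. That of GUT1 was 0.04 and ranged from -0.02 to 0.10 with 1 array left out. Over all probe sets 49.7% were positive in miR172a and 38.6% in miR164b, and 0 of these 4 genes had an unadjusted p below 0.05 in limma in either comparison.

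Among the 4 xyloglucan backbone genes, CSLC04 (AT3G28180), which encodes a glucan synthase of xyloglucan, was called. It read 412 and 454 on the miR164b arrays, 311 and 286 on the miR172a arrays, and 264 and 269 on the vector arrays. The miR164b arrays lie far above the others, which are close to each other. CSLC04 rose in miR164b by a log2 of 0.67 ± 0.09 against vector (limma adjusted p = 0.0376) and was higher than in miR172a by 0.51 ± 0.09 (limma adjusted p = 0.0335). The log2 difference of miR172a from vector was 0.15 ± 0.09 (limma adjusted p = 0.418).

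Its relatives did not pass in any comparison. CSLC5 averaged 295 ± 11.5 in miR164b, 292 ± 20.6 in miR172a and 248 ± 15.4 in vector, so that both lines lay above vector by log2 differences of 0.24 and 0.23. CSLC12 lay lower than vector in both lines, at 57.3 ± 5.02 in miR164b and 60.6 ± 6.65 in miR172a against 69.4 ± 3.82 in vector. CSLC6 averaged 122 ± 4.95 in miR164b, 119.8 ± 28.7 in miR172a and 112 ± 14.1 in vector. Values for CSLC08, a further xyloglucan gene that the symbol rule misses because the annotation writes it with an AT prefix, were 218 ± 11.7 in miR164b, 223 ± 19.9 in miR172a and 183 ± 27.6 in vector, with 0 calls (unadjusted p of 0.0826 or more in limma).

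CSLA03, a glucomannan synthase gene, read 135 and 133 in miR164b, 122 and 105 in miR172a, and 104 and 87.0 in vector. The arrays of the 3 groups follow that order without overlap, and the log2 difference of miR164b from vector was 0.44 ± 0.11 (limma adjusted p = 0.143). CSLA01 read between 15.7 and 27.9 over the 6 arrays, and both extremes were vector arrays. CSLD2, which acts in root hair growth, averaged 199 ± 18.9 in miR164b, 216 ± 16 in miR172a and 203 ± 4.38 in vector. GAUT15, of the family of pectin galacturonosyltransferases, read 90.7 and 83.1 in miR164b, 121 and 131 in miR172a, and 109 and 96.5 in vector. Here the lines lie on either side of vector, and their difference of -0.47 ± 0.10 for miR164b minus miR172a narrowly missed the threshold (limma adjusted p = 0.0506).

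In miR164b against vector, 3 of 34 genes (8.82%) were called, a share above the 1.79% of all probe sets. Of these, 2 were higher and 1 lower, beside 0.95% and 0.84% of all probe sets. In miR172a against vector, 3 of 34 (8.82%) were called, beside 5.87% of all probe sets. All 3 were higher, beside 3.23% of all probe sets, and 0 were lower, beside 2.64%. Without the 40% dimmest probe sets 3 of the 22 genes tested were called there. Calls over the whole array rose from 1336 to 2398 in that fit. Between the lines 2 of 34 (5.88%) were called, a share below the 7.14% of all probe sets. Of them 1 was higher and 1 lower in miR164b, beside 3.11% and 4.02% of all probe sets. With median centring 991 probe sets of the array were called higher and 652 lower in that comparison, against 708 and 915 as reported, so its balance of directions depends on the scaling.

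At an unadjusted p below 0.05 limma gave 9 of 34 genes in miR164b against vector, beside 18.5% of all probe sets. Of these, 8 were higher and 1 lower, beside 7.04% and 11.4%. In miR172a against vector it gave 9 of 34, beside 21.3%, with 9 higher and 0 lower, beside 11% and 10.3%. Between the lines it gave 10 of 34, beside 23.8%, with 2 higher and 8 lower in miR164b, beside 9.14% and 14.6%.

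Against vector the lean was upward in miR172a, and in miR164b the share of positive differences was also above that of all probe sets. Between the lines that share was close to that of all probe sets. For miR164b minus miR172a 35.3% of the 34 differences were positive, with a median of -0.08. All probe sets had 39.2% and -0.06. Of the 34 log2 differences from vector, 27 were positive in miR172a, or 79.4%, with a median of 0.13, while all probe sets had 49.7% positive and a median of 0.00 after rounding. In miR164b, 17 of 34 were positive, or 50%, with a median of 0.00, while all probe sets had 38.6% positive and a median of -0.05. Of the 12 genes outside the TBL family, 11 were positive in miR172a and 5 in miR164b. Of the 22 TBL genes, 16 were positive in miR172a and 12 in miR164b. With median centring 26 of 34 genes were positive in miR172a and 23 in miR164b, so the count for miR164b depends on the scaling.

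Arrays of miR172a and vector did not overlap for 18 of the 34 genes, beside 48.8% of all probe sets. They lay wholly above vector for 15 genes and wholly below for 3, beside 24.9% and 23.8%. For miR164b against vector 15 genes did not overlap, beside 51.6%, with 10 above and 5 below, beside 19.1% and 32.5%. Between the lines 22 genes did not overlap, beside 53.4%, and miR164b lay above for 7 and below for 15, beside 19.4% and 34%. Separation of the arrays by itself is thus common on the whole array, with 2 arrays in a group.

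**Figure D3:**
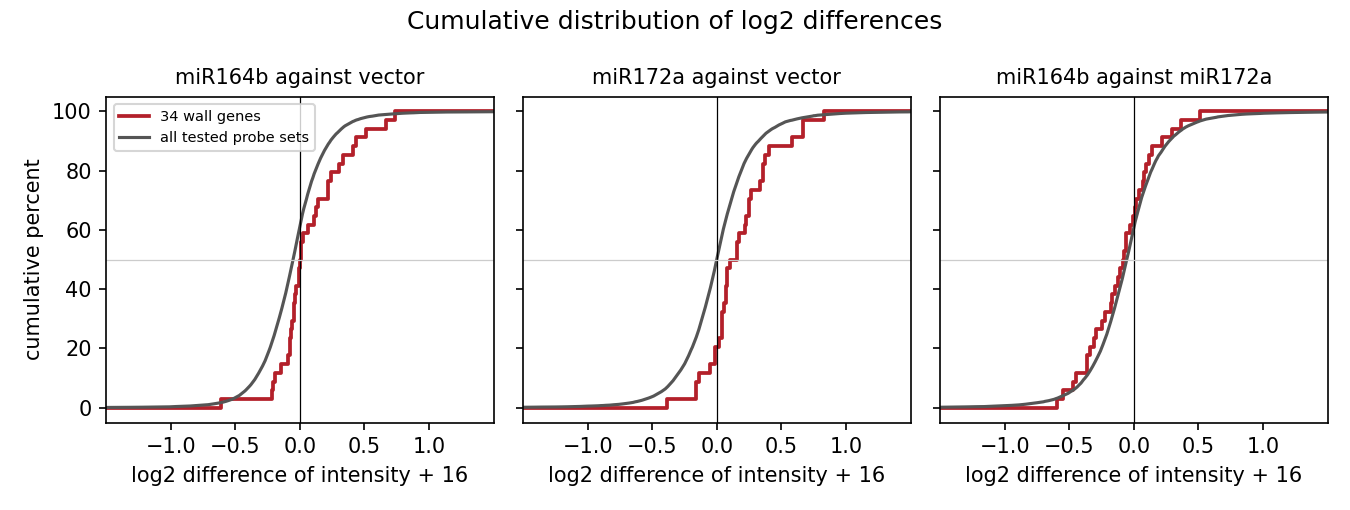
Cumulative percent (vertical axis) of log2 differences of intensity + 16 (horizontal axis) for the 34 wall genes and for all 22746 tested probe sets in each comparison. The curve of the 34 genes runs to the right of that of all probe sets in miR172a against vector, with medians of 0.13 and 0.00 after rounding, and close to it between the lines, with medians of -0.08 and -0.06. In miR164b against vector the medians were 0.00 and -0.05.

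Few other genes of these pathways had a named probe set. TBL40, of the same family and listed in the annotation by its locus AT2G31110, was not a member by its symbol and was looked up after values had been seen. Its brighter probe set read 132 and 115 in miR172a and 108 and 98.9 in miR164b, against 84.1 and 80.0 in vector. That is a rise in miR172a of log2 0.50 ± 0.10 (limma adjusted p = 0.0485), but its other probe set, with a log2 difference of 0.39 ± 0.12, did not pass (limma adjusted p = 0.132). Of 8 other acetylation genes 2 were measured and 0 were called. TBR, the founding member of the TBL family, averaged 446 ± 18.1 in miR164b, 428 ± 6.93 in miR172a and 381 ± 23.1 in vector (unadjusted p = 0.0483 for miR164b against vector in limma, the 1 such value below 0.05 for these genes). AXY9, needed for acetylation of several wall polysaccharides, averaged 156 ± 5.94, 173 ± 1.70 and 180 ± 27.9 in the same order of groups.

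Of 13 partners of cellulose synthase 3 were measured, and CC1 (AT1G45688), a companion protein of the cellulose synthase complex that supports cellulose synthesis under salt stress, was called. It read 424 and 440 in miR172a, 304 and 292 in miR164b, and 289 and 318 in vector. The miR172a arrays stand above all others. CC1 rose in miR172a by a log2 of 0.49 ± 0.09 against vector (limma adjusted p = 0.0382) and was lower in miR164b than in miR172a by a log2 of -0.51 ± 0.09 (limma adjusted p = 0.0297). COB, needed for oriented cellulose deposition, averaged 788 ± 0.566 in miR164b, 714 ± 40.7 in miR172a and 659 ± 18.6 in vector and did not pass (limma adjusted p = 0.208 and 0.518 against vector). CC2, a relative of CC1, read 32.3 and 30.2 in miR164b, 29.0 and 31.5 in miR172a, and 27.9 and 7.40 in vector, where 1 array stands apart. Of 24 other transferases 2 were measured and 0 were called in limma. The pectin methyltransferase gene CGR2 averaged 778 ± 22.4 in miR164b and 748 ± 49.0 in miR172a against 588 ± 23.6 in vector (unadjusted p = 0.00519 and 0.0103, adjusted p = 0.109 and 0.0983 in limma). RRT1, a rhamnosyltransferase of pectin, averaged 165 ± 5.94 in miR164b, 205 ± 1.48 in miR172a and 174 ± 6.58 in vector (unadjusted p = 0.0363 for miR172a against vector and 0.0128 between the lines in limma). The lists of 33 nucleotide sugar genes, 7 callose synthases and 10 secondary wall regulators had 0 genes with a named probe set.

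Each of the 8 calls depends on the number of arrays. When any 1 of the 6 arrays was left out, 7 of the calls were lost every time, and the difference of TBL37 between the lines was kept without either vector array and lost without any of the other 4. The sign of the log2 difference held for the 8 calls under each alternative that tested the gene. For several alternatives it could not change. Removal of dim probe sets, the replicate block and trend with robust moderation leave the difference as it was. So do the mean of a gene's probe sets, with 1 per member, and fits without arrays of the 3rd group. TBL34 and TBL43 were not tested without the 40% dimmest probe sets, since that filter removed them, and have 14 alternatives each in place of 15. For TBL36 in miR172a the adjusted p ranged from 0.00182 to 0.0951 and the log2 difference from 0.63 to 0.92. For TBL28 they ranged from 0.00406 to 0.123 and from 0.47 to 0.76, and for TBL43 from 0.0195 to 0.0985 and from 0.32 to 1.04. For TBL34 in miR164b they ranged from 0.016 to 0.188 and from 0.38 to 1.05, for CSLC04 from 0.00423 to 0.245 and from 0.59 to 0.73, and for TBL37 from 0.00643 to 0.259 and from -0.68 to -0.47. Leaving the whole 3rd group out of the fit gave the same values as leaving out 1 of its arrays, so it is not a separate check. The call of TBL37 between the lines was the 1 kept there. These are all limma values with Benjamini-Hochberg adjustment.

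**Figure D4:**
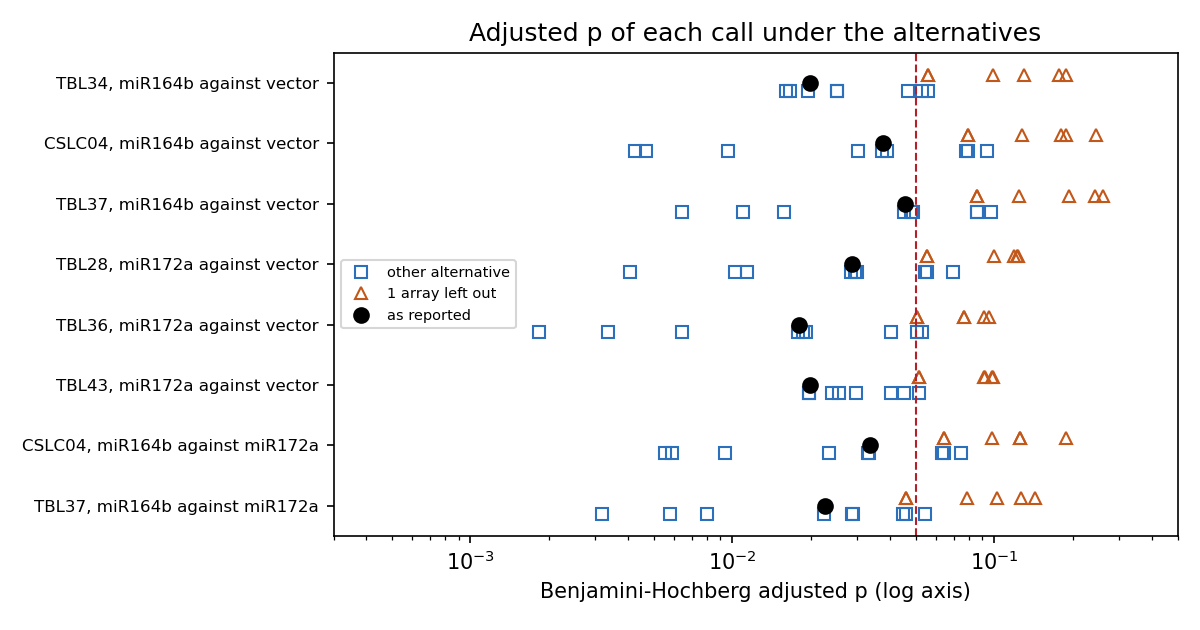
Benjamini-Hochberg adjusted p from limma (log axis) of the 8 calls as reported (filled circles), with 1 array left out (triangles) and under the other alternatives (squares); the dashed line marks 0.05. Triangles lie to the right of the line for 7 of the 8 calls, and for TBL37 between the lines those without a vector array lie to its left.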

How the data were processed

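The authors deposited 1 scaled intensity per probe set and array for 22810 probe sets, on a linear scale with no value below 0; how they were summarised is not given in the sources used here. Each array's mean, its lowest and highest 2% aside, was 200. The 64 control probe sets were left out. Gene names came from the array annotation, and loci from the TAIR10.1 gene table, which held all 34 members. Of the tested probe sets 13513 have 1 gene, 503 have several and 8730 are not listed in the annotation. Detection calls were not used, and the number of arrays limits precision.

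Values were taken as log2(intensity + 16), with no further normalization. limma 3.58.1 in R 4.3.3 fitted 1 mean per group to all 6 arrays, with 3 residual and 2.69 prior degrees of freedom, and tests were two-sided. The fit was tested on simulated arrays of the same design with known changes in miR164b and miR172a against vector. It called 1.34% and 1.19% of changes of log2 0.5, 56.4% and 58.2% of log2 1, and 93.3% and 94.4% of log2 2. A gene that did not pass can therefore still have changed. The simulation changed fewer probe sets than the 407 and 1336 called here and drew spreads without regard to level. Its shares may thus differ from those of these arrays, where CC1 passed in miR172a against vector at a log2 difference of 0.49. Alternatives were offsets of 1 and 64, median centring, quantile normalization, removal of the 40% dimmest probe sets, a replicate block, the mean of a gene's probe sets, trend with robust moderation, only the compared groups, and leaving out each array, where the lone array of a group is assumed to vary like the others. Python 3.11.15 and matplotlib 3.10.9 drew the figures.

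The members and gene lists were chosen with earlier results of these data known. Named by rule were all called genes, TBL28, TBL36, TBL43, the brightest member and the largest change per family, and called genes of the other lists; other genes were chosen after their values were seen. No sequences were used here.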

Additional observations from a re-analysis of the deposited data

How the results depend on the processing

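The count of called genes among the 34 was 3 for miR164b against vector, 3 for miR172a against vector and 2 between the lines. With an offset of 1 it was 1, 1 and 0, beside 103, 406 and 683 called probe sets of the whole array. With only the 2 compared groups in the fit it was 0, 0 and 1, beside 144, 359 and 1018. With an offset of 64 and with trend and robust moderation the count between the lines was 4, beside 2707 and 2781 probe sets of the whole array. It was also 4 without the 40% dimmest probe sets, beside 2970, where only 22 of the 34 genes were tested. Leaving out 1 array gave 0 to 0, 0 to 0 and 0 to 1. At counts of 0 with both arrays of each compared group in the fit, limma gave 8 to 10 genes at an unadjusted p below 0.05. The share of all probe sets in those fits was not computed. In the fits as reported it was 18.5%, 21.3% and 23.8%. Over the whole array the counts of 407, 1336 and 1623 ranged from 9 to 1136, from 111 to 2398 and from 102 to 2970 under the alternatives.

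Replicate numbers come from letters in the sample titles and name no shared plants, and deviations of same-numbered arrays correlated at -0.011, 0.105 and 0.079. With the replicate block 0 genes were called in miR164b against vector, 2 in miR172a against vector and 1 between the lines. Calls over the whole array fell as well, from 407, 1336 and 1623 to 186, 795 and 1104 probe sets.

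Some differences close to 0 changed sign; the cause was not tested. For miR164b against vector these were GUT1 with median centring (0.01), IRX15 with quantile normalization (0.00), CSLD2 with median centring (0.02) and IRX15-L with an offset of 64 (0.00), median centring (0.04) and quantile normalization (0.12). With 1 array left out, GUT1 ranged from -0.08 to 0.01, GUT2 from -0.08 to 0.09, IRX15 from -0.10 to 0.01, IRX15-L from -0.20 to 0.19 and CSLD2 from -0.12 to 0.06. In miR172a against vector GUT1 ranged from -0.02 to 0.10 and TBL37 from -0.08 to 0.04, and between the lines CSLC5 ranged from -0.06 to 0.08. The 8 calls held their sign in all 118 values and were lost in many of them. Several alternatives cannot change the log2 difference, so a held sign there carries no weight. Differences not called above passed in 14 values: those of TBL45 in miR172a, GAUT15, TBL28 and TBL34 between the lines, and TBL36 and CSLA03 in miR164b. The median of the 34 genes in miR172a ranged from 0.07 to 0.23, the highest without vector replicate 1.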
